A study of Homo sapiens with 6 samples.

Results

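Numbered ZNF genes are human genes whose symbol is ZNF and a number, most of which encode zinc finger proteins. Of the 60683 rows of the count table, 510 were protein-coding genes with such a symbol (a final letter allowed), and 247 of these lay on chromosome 19. The 165 genes described here, called members below, are those with at least 1500 raw counts summed over the 6 libraries. Of the members, 40 lie on chromosome 19 and 125 on other chromosomes. The members were chosen by this summed count, which pools both groups. It ran from 1503 to 28546 with a median of 3140 and is a description only. The members were measured in 143B cells, a human osteosarcoma line, in 3 libraries of the PBS control and 3 of TPBC-PEG treatment, each of 24 h. The labels do not describe the TPBC-PEG compound further. The TPBC-PEG dose is 3 µM in the sample titles and 300 µM in the treatment protocol, and the labels do not say whether the cells were exposed to light. All 6 libraries come from the same cell line, with no other treatment named. Nothing states that replicates were separate cultures, so p-values measure the spread between these libraries, which may be technical. The series title names photodynamic therapy and HIPPO signalling in osteosarcoma, and the comparison made here is TPBC-PEG against PBS.

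A C2H2 zinc finger is a short loop of protein in which a pair of cysteines and a pair of histidines hold a zinc ion, and arrays of such fingers read DNA sequence. Many numbered ZNF proteins also carry a KRAB domain, which recruits TRIM28 (also called KAP1) and through it the histone methyltransferase SETDB1 and HP1 proteins, and this machinery silences retroelements and some genes. KRAB zinc finger genes multiplied by tandem duplication and many stand in clusters on chromosome 19, while numbered ZNF genes without KRAB include regulators of transcription, partners of chromatin complexes and proteins of RNA or the ribosome.

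The coding sequences below show the feature that gives these genes their name, in the members with the largest fold changes upwards on chromosome 19 (ZNF841 and ZNF550) and elsewhere (ZNF697), and in ZNF621. Each is reference sequence of GRCh38 (GENCODE 29 transcripts), read 5′ to 3′ along the gene. In the fingers, capitals mark the codons of the paired cysteines and histidines, and the bases after the last histidine are the linker to the next finger.
ZNF841 finger and linker, chr19:52066763-52066843, minus strand: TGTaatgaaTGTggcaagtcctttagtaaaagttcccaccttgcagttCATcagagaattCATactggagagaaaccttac
ZNF550 finger and linker, chr19:57547467-57547547, minus strand: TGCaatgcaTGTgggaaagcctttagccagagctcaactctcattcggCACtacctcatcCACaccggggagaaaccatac
ZNF621 finger and linker, chr3:40532227-40532307, plus strand: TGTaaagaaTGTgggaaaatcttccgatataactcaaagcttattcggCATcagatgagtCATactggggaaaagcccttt
ZNF697 finger and linker, chr1:119623476-119623556, minus strand: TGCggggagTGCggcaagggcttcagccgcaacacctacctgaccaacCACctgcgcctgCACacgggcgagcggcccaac
In the KRAB cores, capitals mark the codons of conserved residues of the A box. ZNF697 has none of this pattern, so only the other members of the set are shown.
ZNF841 KRAB core, chr19:52077034-52077066, minus strand: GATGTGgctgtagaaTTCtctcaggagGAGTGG
ZNF550 KRAB core, chr19:57556307-57556339, minus strand: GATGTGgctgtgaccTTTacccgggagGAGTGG
ZNF621 KRAB core, chr3:40529337-40529369, plus strand: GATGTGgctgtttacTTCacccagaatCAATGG
Fingers were counted by the spacing of cysteines and histidines in the translated reference. A KRAB domain was scored where this core pattern or another core pattern of the domain, not shown, was found. Some members, such as ZNF224 and ZNF75A, held only the other pattern. At least 1 of these KRAB patterns was found in 78 members, 30 of the 40 on chromosome 19 and 48 of the 125 elsewhere. Diverged KRAB domains can be missed. By the same rule a KRAB pattern was found in 28 of 19301 protein-coding genes left after zinc finger symbols were set aside. Symbols beginning with SSX, KRBOX, KRBA, POGK, PRDM, RBAK, ZIM or ZIK were set aside too. The 28 is thus not a count over all other protein-coding genes.

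The libraries held 15726323 to 20486584 counts, and no pair of a group agreed as closely as a copy would. CPM values are counts relative to library size. Those of the marker genes in this paragraph were not scaled by TMM, while those of members and cofactor genes below were. Markers of the mesenchymal line summed to 2950 to 3060 CPM in PBS and 2760 to 2890 in TPBC-PEG. Of the 7 listed genes, 5 had at least 1500 counts. Most of this sum was VIM, at 2480 to 2570 and 2320 to 2420 CPM, and the bone genes below went in both directions. RUNX2 lay between 15.8 and 18.9 CPM in PBS and between 24.4 and 27.6 in TPBC-PEG. SPP1 lay between 16.0 and 18.4 CPM in PBS and between 30.4 and 32.3 in TPBC-PEG, and COL1A1 between 24.4 and 29.7 in PBS and between 17.9 and 23.0 in TPBC-PEG. Their part in the members' results was not tested. The bone collagen gene COL1A2 was near 0, at no more than 0.122 CPM. Leukocyte markers summed to at most 1.07 CPM, endothelial ones to at most 0.49 CPM and the erythroid marker HBB was at 0. Epithelial markers summed to 14.8 to 17.6 CPM in PBS and 16.6 to 17.8 in TPBC-PEG, nearly all from EPCAM, with CDH1 at no more than 0.146 CPM. The neuronal genes summed to 5.51 to 6.54 CPM in PBS and 6.49 to 7.52 in TPBC-PEG. The mitochondrial share of counts was 5.42% to 6.32% in PBS and 4.75% to 4.92% in TPBC-PEG, and its part in the results was not tested.

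More members were higher than lower in TPBC-PEG, by small amounts, and this held on chromosome 19 and elsewhere. Of the 165 members, all of which passed the filter on low counts, 51 (30.9%) were called higher and 11 (6.67%) lower by edgeR's quasi-likelihood test at a Benjamini-Hochberg adjusted p under 0.05 over all genes tested. Over all 15846 genes tested, 16.2% were called higher and 16.9% lower. Among the 8667 protein-coding genes with the same minimum of counts, 19.9% were called higher and 27.0% lower. The members' log2 fold changes had a median of 0.09, with 119 above and 46 below 0, beside a median of 0.01 over all genes tested and -0.03 over those protein-coding genes. The changes were small, since 0 members passed a 1.5-fold change. In 87 members (52.7%) the 3 values of one group all lay above or below those of the other, against 43.4% of all genes tested and 56.2% of protein-coding genes with the same minimum.

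On chromosome 19, 12 of the 40 members (30.0%) were called higher and 2 (5.0%) lower, with a median log2 fold change of 0.08. On other chromosomes, 39 of the 125 (31.2%) were called higher and 9 (7.2%) lower, with a median of 0.09. The difference between the chromosome sets was not tested. Values of the groups did not overlap in 16 members of chromosome 19 (40.0%) and in 71 elsewhere (56.8%). The first share was below the 43.4% of all genes tested. The second was near the 56.2% of protein-coding genes with the same minimum. Fewer reads stood behind each member of chromosome 19, with a median of 18.3 CPM in PBS against 30.8 CPM elsewhere, not scaled by length. The other protein-coding genes of chromosome 19 with the same minimum stood apart in direction. Of these 393 genes, 39 (9.92%) were called higher and 184 (46.8%) lower, with a median of -0.14. Their median exon GC content was 59.5%, against 42.0% in the members of chromosome 19 and 43.9% in members elsewhere. Among protein-coding genes outside the family whose GC content lay within the members' quartiles (39.6% to 49.4%), 22.5% were called higher and 23.6% lower. With a smooth trend of fold change on GC content removed, 8 of the 40 members on chromosome 19 (20%) were called higher and 3 (7.5%) lower, with a median of 0.05. Elsewhere the same correction left 29 of 125 (23.2%) higher and 9 (7.2%) lower, with a median of 0.07. The shares under this correction were 14.4% higher and 18.5% lower over all genes tested, and 16.8% and 29.8% over protein-coding genes with the same minimum, so the members' shares called higher came nearer to the background. Over both chromosome sets, 46 of the 62 called members kept their call and direction. The corrected values for the other genes of chromosome 19 were 50 higher, 138 lower and a median of -0.09.

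**Figure D1:**
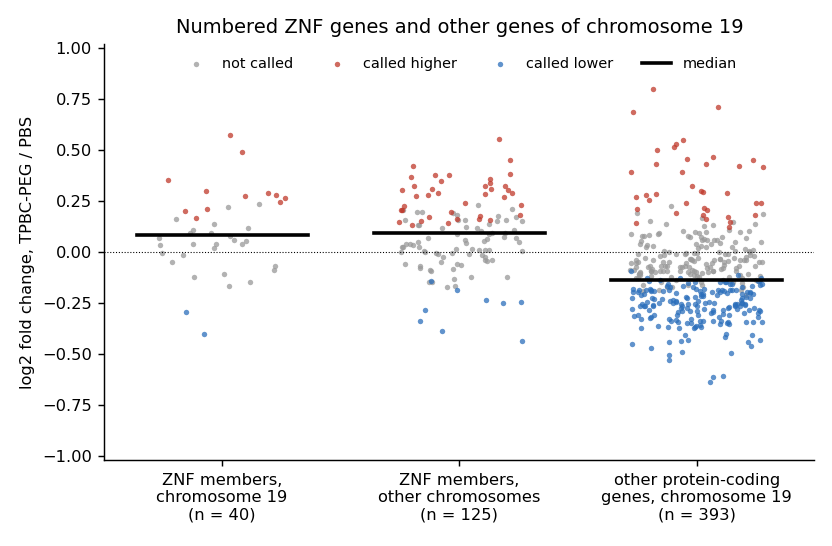
Log2 fold change (TPBC-PEG over PBS, vertical axis) of each member on chromosome 19 (40), each member elsewhere (125) and each other protein-coding gene of chromosome 19 with at least 1500 counts (393); colours mark calls, black bars the medians (0.08, 0.09 and -0.14), and 2 points beyond 1 in size are not drawn. Both member sets centre above 0 and the other genes of chromosome 19 below it.

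The members' share of all counts was higher in every TPBC-PEG library than in every PBS library. Their share was 0.650%, 0.652% and 0.646% in the PBS libraries and 0.719%, 0.720% and 0.707% in the TPBC-PEG libraries. The part from chromosome 19 was 0.111%, 0.110% and 0.110% in PBS and 0.122%, 0.123% and 0.119% in TPBC-PEG. The groups overlap in neither sum, and because members were chosen with results known, no test is given. In bulk RNA, fewer cells that express a gene and less RNA in each cell cannot be told apart.

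The largest rises and falls named here and below were picked among called members without overlap between groups. Their lack of overlap was thus fixed by the choice and adds no support. Among chromosome 19 members, ZNF841, a KRAB gene with 20 fingers at chr19:52064466-52095765, rose most. It had 11.3, 12.2 and 12.2 CPM in the PBS libraries and 18.2, 17.3 and 17.5 in the TPBC-PEG libraries. The groups did not overlap. The means were 11.9 ± 0.499 and 17.7 ± 0.513 CPM (SD, n = 3 each), a log2 fold change of 0.57 ± 0.095 (SE; edgeR adjusted p = 3.52e-06). ZNF550, a KRAB gene with 8 fingers at chr19:57535257-57559863, had 13.2, 13.9 and 11.4 CPM in PBS and 18.1, 18.6 and 17.5 in TPBC-PEG. Its lowest TPBC-PEG library stood above its highest PBS library, with a log2 fold change of 0.49 ± 0.095 (SE; edgeR adjusted p = 4.61e-05). ZNF121, at chr19:9560353-9584533 with 9 fingers and no KRAB pattern found, had 68.0, 63.7 and 66.5 CPM in PBS and 85.4, 79.1 and 79.6 in TPBC-PEG. Here too the groups were apart, with a log2 fold change of 0.30 ± 0.051 (SE; edgeR adjusted p = 5.17e-06).

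ZNF845, with a KRAB domain and 26 fingers, the most found in a member of chromosome 19, had 13.9, 11 and 12.5 CPM in PBS and 16.5, 15.6 and 15.8 in TPBC-PEG. Its log2 fold change was 0.35 (edgeR adjusted p = 0.00444), and without PBS replicate 2 the adjusted p was 0.0544. ZNF224, a KRAB repressor first described on the aldolase A gene, had 15.8, 17.1 and 14.5 CPM in PBS and 19.8, 19.1 and 19 in TPBC-PEG. Its log2 fold change was 0.29 (edgeR adjusted p = 0.00927), without PBS replicate 3 the adjusted p was 0.0726, and 40.5% of its exon length overlaps another annotated gene. ZNF507 had 83.2, 77.4 and 77.9 CPM in PBS and 89.4, 91.4 and 87.4 in TPBC-PEG, a rise of 0.17 (edgeR adjusted p = 0.00485) that lost its call with the GC trend removed (adjusted p = 0.0588). In each of these genes all TPBC-PEG libraries were above all PBS libraries, which the choice required of ZNF845 and ZNF224 but not of ZNF507.

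The members of chromosome 19 called lower were ZNF180 and ZNF544. ZNF180, at chr19:44474428-44500524 with 12 fingers, had 17.1, 15.7 and 19.7 CPM in PBS and 12.6, 13.5 and 13.6 in TPBC-PEG. It fell by 0.40 ± 0.097 on the log2 scale (SE; edgeR adjusted p = 0.000938), with no overlap between groups. ZNF544, a KRAB gene at chr19:58228594-58277495, had 26.3, 29.3 and 27.6 CPM in PBS and 24.2, 20.4 and 23.3 in TPBC-PEG. It fell by 0.30 ± 0.078 (SE; edgeR adjusted p = 0.00241), also without overlap, and 13.0% of its exon length overlaps another gene. ZNF146, a protein made almost wholly of fingers, was the most abundant member of chromosome 19 per kilobase of exon, at 48.2 CPM per kb. It had 198, 189 and 205 CPM in PBS and 203, 212 and 193 in TPBC-PEG. Its groups overlapped, and the log2 fold change of 0.04 was not called (edgeR adjusted p = 0.507) and was negative with the GC trend removed. With the expression trend removed it was called higher, at 0.11 (edgeR adjusted p = 0.0402).

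**Figure D2:**
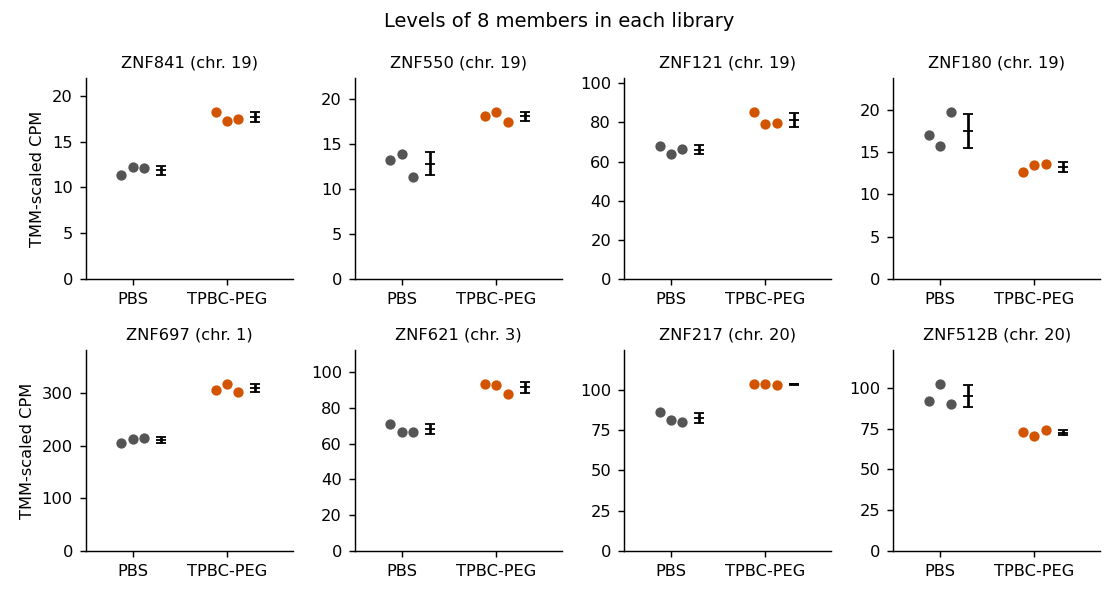
TMM-scaled CPM (vertical axes, from 0) of 8 members in each library, points being libraries and bars the mean ± SD of 3. ZNF841, ZNF550, ZNF121, ZNF697, ZNF621 and ZNF217 lie higher in all TPBC-PEG libraries, and ZNF180 and ZNF512B lie lower in all of them.

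Members of chromosome 19 were put in groups along the chromosome, a gap of over 1 Mb opening a new group, and 4 groups held at least 5 members. In the group at 52.01 to 53.36 Mb, all 6 members had a KRAB pattern, ZNF841 and ZNF845 were the 2 called higher, and the median log2 fold change was 0.23. The group ran from -0.12 to 0.57, so neighbours did not all move alike. In the group at 57.19 to 58.28 Mb, 9 members had a median of 0.07 and included 3 that rose (ZNF264, ZNF550 and ZNF587) and 1 that fell (ZNF544). The 7 members at 9.14 to 9.675 Mb had a median of 0.11 with 2 called higher (ZNF266 and ZNF121). The 5 members at 43.91 to 44.5 Mb had a median of 0.06 with ZNF224 higher and ZNF180 lower. Both groups that held a called fall thus held called rises as well. For comparison, 16.2% of all genes tested were called higher and 16.9% lower. Among protein-coding genes with the same minimum it was 19.9% and 27.0%. The groups hold few genes, and none was tested against these shares.

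**Figure D3:**
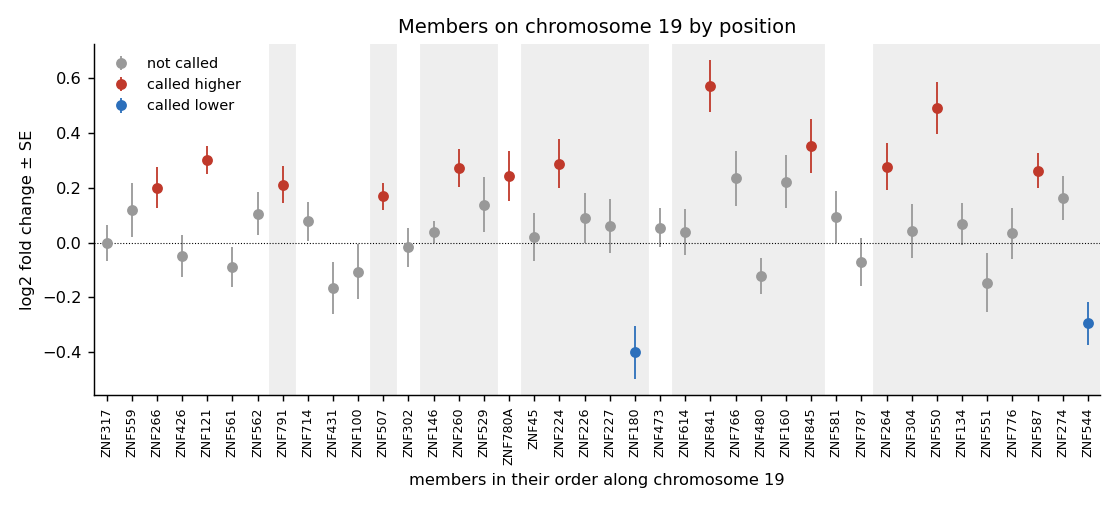
Log2 fold change ± SE (vertical axis) of the 40 members of chromosome 19 in their order along it, with shading that alternates between groups more than 1 Mb apart. Calls higher (12) lie in most groups, and the calls lower are ZNF180 and ZNF544.

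On other chromosomes, ZNF697 on chromosome 1 had the smallest p-value of any member. It had 205, 212 and 215 CPM in PBS and 306, 318 and 302 in TPBC-PEG, with means of 211 ± 5.28 and 309 ± 7.88 (SD, n = 3 each). Its log2 fold change was 0.55 ± 0.038 (SE; edgeR adjusted p = 8.16e-17), the groups lay far apart, and at 51.5 CPM per kb it was the most abundant member per kilobase. ZNF621 on chromosome 3, a KRAB gene with 7 fingers, had 71.1, 66.6 and 66.7 CPM in PBS and 93.5, 92.7 and 87.9 in TPBC-PEG. Its rise of 0.42 ± 0.049 (SE; edgeR adjusted p = 1.23e-09) also left no overlap. ZNF280B (0.45, edgeR adjusted p = 1.24e-05), ZNF133 (0.38, adjusted p = 0.000818) and ZNF518B (0.38, adjusted p = 9.69e-06) rose too, each without overlap between groups. ZNF664 rose by 0.16 (edgeR adjusted p = 0.002), from 178, 171 and 191 CPM to 206, 203 and 193.

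The falls elsewhere were led by ZNF703 on chromosome 8, a corepressor gene amplified in some luminal breast cancers and without a classical finger by this pattern. It had 23.2, 24.2 and 21.0 CPM in PBS and 18.1, 16.7 and 15.6 in TPBC-PEG, a fall of 0.44 ± 0.086 on the log2 scale (SE; edgeR adjusted p = 5.6e-05). ZNF512B, a gene whose protein binds the NuRD repressor complex, had 91.6, 103 and 90.3 CPM in PBS and 73.0, 70.6 and 74.1 in TPBC-PEG. All its TPBC-PEG values were below all its PBS values, and it fell by 0.39 ± 0.051 (SE; edgeR adjusted p = 2.02e-08). ZNF75A fell by 0.34 (edgeR adjusted p = 0.000671), with 16.8% of its exon length overlapping another gene. ZNF185, which encodes an actin-associated LIM protein rather than a zinc finger regulator of DNA, had 47.7, 48.9 and 46.2 CPM in PBS and 36, 39.5 and 45.3 in TPBC-PEG. It fell by 0.25 (edgeR adjusted p = 0.00279), and TPBC-PEG replicate 3 lay close to the PBS range; without TPBC-PEG replicate 1 the adjusted p was 0.0658. ZNF280D fell by 0.28 (edgeR adjusted p = 0.0151), its adjusted p without TPBC-PEG replicate 1 was 0.125, and 27.3% of its exon length overlaps another gene.

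By role, the KRAB repressors ZNF274, which brings SETDB1 to the ends of zinc finger genes, and ZNF445, which acts at imprinted genes, were members and neither was called. ZNF274 had a log2 fold change of 0.16 (edgeR adjusted p = 0.112) and ZNF445 of 0.07 (0.485), negative without PBS replicate 2. ZNF274 was called higher without TPBC-PEG replicate 1 (adjusted p = 0.0258) and with scaling by library size alone (0.0413). Their values overlapped between groups. The other 4 of the 6 listed repressors were below the minimum. Of 7 members among 10 listed DNA-binding regulators, 3 were called higher and 2 lower, with a median of 0.01. Beside this, 16.2% of all genes tested were called higher and 16.9% lower. Among protein-coding genes with the same minimum, 19.9% were called higher and 27.0% lower. No role set was tested against these shares, and each holds few genes. ZNF217, an oncogene product that works with corepressors, had 86.2, 81.6 and 79.8 CPM in PBS and 104, 103 and 103 in TPBC-PEG, a rise of 0.32 ± 0.047 (SE; edgeR adjusted p = 1.82e-07). Its groups did not overlap.

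ZNF148 and ZNF281, related factors that bind GC-rich promoter elements, rose by 0.18 (edgeR adjusted p = 0.00176) and 0.15 (0.0159). With the GC trend removed neither was called, at adjusted p = 0.0618 and 0.113. ZNF281 also lost its call without PBS replicate 2 (0.0545) and when replicate 1 (0.0739) or replicate 2 (0.0681) of TPBC-PEG was left out. ZNF143, which binds promoters and chromatin loop anchors, had 28.9, 30.9 and 29.6 CPM in PBS and 28.1, 25.6 and 24.6 in TPBC-PEG. It fell by 0.19 (edgeR adjusted p = 0.0417), a call lost under 7 other settings, among them leaving out PBS replicate 2 (adjusted p = 0.136) or 3 (0.0682) or TPBC-PEG replicate 2 (0.127) or 3 (0.154). Its close relative ZNF76 (log2 fold change 0.01) was not called. ZNF384, a gene fused in some leukaemias, was not called either (0.01), and the signs of ZNF76 and ZNF384 turned under other settings.

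All 5 listed partners of chromatin complexes were members, and 2 were called higher, beside 16.2% of all genes tested and 19.9% of protein-coding genes with the same minimum. ZNF451, a SUMO ligase, had 51.1, 53.5 and 52.3 CPM in PBS and 66.1, 65.4 and 64.4 in TPBC-PEG. It rose by 0.32 ± 0.054 (SE; edgeR adjusted p = 4.12e-06), with the groups well apart. ZNF644, which works with WIZ and the G9a methyltransferase, rose by 0.15 (edgeR adjusted p = 0.0157), and this call was lost under 4 other settings: when PBS replicate 2 (0.0518), PBS replicate 3 (0.0645) or TPBC-PEG replicate 2 (0.051) was left out, and with the GC trend removed (0.179). ZNF592, ZNF687 and ZNF532, which form a complex with ZMYND8, had log2 fold changes of -0.03, 0.03 and 0.09 and were not called, the sign of ZNF592 turning with scaling by library size alone. ZNF532 was called higher with library size alone (edgeR adjusted p = 0.041) and without PBS replicate 2 (0.0411).

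Of the 7 members that act on RNA, the ribosome or the spindle, 0 were called higher and 2 lower. Those 2 of 7 are near the 27.0% called lower among protein-coding genes with the same minimum, of which 19.9% were called higher. Over all genes tested the shares were 16.9% lower and 16.2% higher. ZNF207, a spindle assembly protein that binds BUB3, had 157, 149 and 162 CPM in PBS and 135, 128 and 135 in TPBC-PEG. It fell by 0.24 ± 0.042 on the log2 scale (SE; edgeR adjusted p = 1.14e-05), with no overlap. ZNF326, a part of the DBIRD complex that links splicing to transcription, fell by 0.14 (edgeR adjusted p = 0.0171), a call lost under 4 other settings, among them without PBS replicate 3 (0.0816) and without TPBC-PEG replicate 1 (0.0884). ZNF598, the ubiquitin ligase of collided ribosomes, ZNF622 and ZNF593, which act in making the large ribosomal subunit, and ZNF638 and ZNF106, which bind RNA, were not called. Their log2 fold changes were 0.00, 0.06, -0.01, -0.02 and 0.01, and the sign turned under other settings in all but ZNF622. The exons of ZNF593 lie wholly within those of another annotated gene, so its reads cannot be told apart if strand was ignored.

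The share called higher was larger in members with more fingers, and KRAB members were called less often than the others in both directions. Of 33 members with 0 to 4 fingers found, 7 (21.2%) were called higher and 5 (15.2%) lower, with a median log2 fold change of 0.04. Of 54 with 5 to 9 fingers the counts were 12 and 3 (median 0.07), and of 49 with 10 to 14 they were 19 and 3 (0.12). Of 29 members with 15 or more fingers, 13 (44.8%) were called higher and 0 lower, with a median of 0.18. For comparison, 16.2% of all genes tested were called higher and 16.9% lower. Among protein-coding genes with the same minimum it was 19.9% and 27.0%. The share called higher with 0 to 4 fingers thus stood near the background. The finger bins also differed in GC content (median 48.2% with 0 to 4 fingers and 42.5% with 15 or more) and in level (median PBS 44.3 and 23.3 CPM). With the GC trend removed, the members with 15 or more fingers had 9 (31%) called higher and 0 lower (median 0.13). Those with 0 to 4 had 4 (12.1%) higher and 5 (15.2%) lower (median 0.04). Under this correction 14.4% of all genes tested were called higher and 18.5% lower. Among protein-coding genes with the same minimum it was 16.8% and 29.8%. With the exon length trend removed instead, the members with 0 to 4 fingers had 6 called higher and 6 lower, and their median was 0.0079. Of the 78 members with a KRAB pattern, 22 (28.2%) were called higher and 2 (2.56%) lower (ZNF75A and ZNF544), with a median of 0.12. Of the 87 without it, 29 (33.3%) were called higher and 9 (10.3%) lower, with a median of 0.08. Members with the pattern were also lower in level (median PBS 23.3 against 35.6 CPM). Their fold changes had larger standard errors (median 0.080 against 0.067). With the GC trend removed, the members with the pattern had 15 called higher and 3 lower (median 0.072), and those without it 22 and 9 (median 0.061), so most of the distance between the medians was gone. The bins and the KRAB split were described after values were seen, members of a cluster share sequence, and no test of these differences was made.

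**Figure D4:**
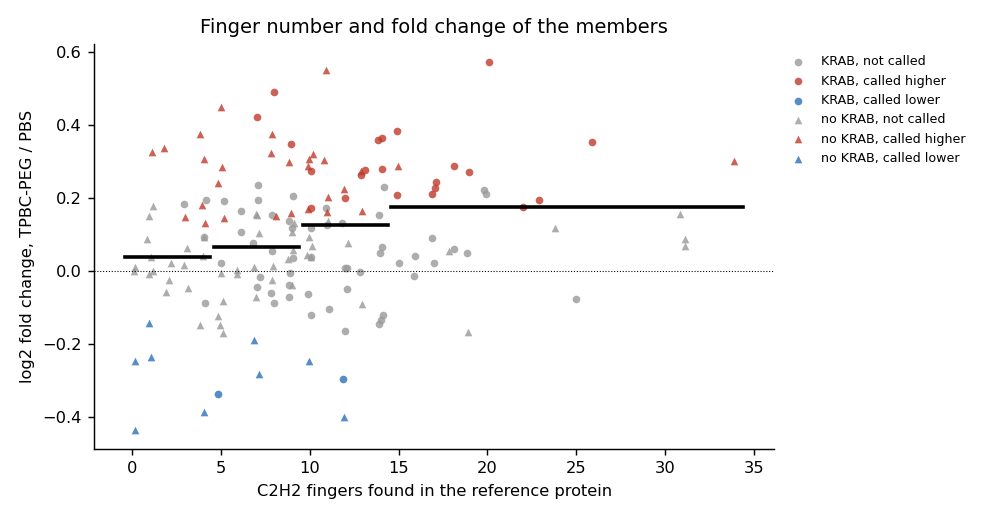
Number of C2H2 fingers found in the reference protein (horizontal axis) and log2 fold change (vertical axis) of the 165 members, circles having a KRAB pattern and triangles none, with black bars at the medians of 4 finger bins (0.04, 0.07, 0.12 and 0.18). Calls lower end at 12 fingers, and calls higher run on to 34.

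Promoter sequence was available for 142 members, 37 of them on chromosome 19, in RefSeq windows of 250 bases before and 50 after the gene start (GRCh38.p14). The motifs searched on both strands were CCGGAAG (ETS factors), TGATGNAA (ATF4 and CHOP), TGACGT (cAMP response element-like), AAGATGGCG (YY1) and, by name, the ZNF143 motif and the ER stress element. No motif contains another. CCGGAAG was in 61 of the 142 member promoters (43.0%), beside 14.2% of all protein-coding promoters of this length and 22.1% of those with the same minimum of counts. It was in 19 of 37 on chromosome 19 (51.4%) and 42 of 105 elsewhere (40.0%), while 22.8% of other chromosome 19 promoters held it. The share was 39.5% (17 of 43) in members called higher, 4 of 8 in those called lower and 44.0% (40 of 91) in those not called. TGATGNAA was in 1 of the 142 (0.704%), beside 2.53% of all protein-coding promoters, 1.57% of those with the same minimum and 0.299% of other chromosome 19 promoters. The YY1 letters were in 4 of 37 on chromosome 19 (10.8%), near the 8.98% of other chromosome 19 promoters, and in 1.9% of members elsewhere, 2.74% of all protein-coding promoters and 4.84% of those with the same minimum. These are letter matches, not sites shown to be bound.

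The 250 bases before the start are printed for the member of each chromosome set that rose most (ZNF841 and ZNF697). They are also printed for the largest fall on chromosome 19 (ZNF180) and for ZNF587 and ZNF740. Both of the latter were called higher and hold CCGGAAG in the bases shown. ZNF841 and ZNF550 also held it in the searched window and had smaller p-values (edgeR) than ZNF587. ZNF587 and ZNF740 were picked for printing after their values were seen. Capitals mark CCGGAAG or its reverse complement and, in ZNF180, also the ZNF143 motif on the other strand. The sequences without capitals hold none of the motifs in the bases shown. ZNF841 is still counted above as holding CCGGAAG, because its match lies outside these bases in the rest of the searched window.
ZNF841 promoter, chr19:52095766-52096015, minus strand: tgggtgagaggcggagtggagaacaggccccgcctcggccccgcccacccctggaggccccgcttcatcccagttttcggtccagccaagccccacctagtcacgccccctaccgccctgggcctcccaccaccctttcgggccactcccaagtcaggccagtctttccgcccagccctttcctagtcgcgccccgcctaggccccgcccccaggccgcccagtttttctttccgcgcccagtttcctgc
ZNF697 promoter, chr1:119648267-119648516, minus strand: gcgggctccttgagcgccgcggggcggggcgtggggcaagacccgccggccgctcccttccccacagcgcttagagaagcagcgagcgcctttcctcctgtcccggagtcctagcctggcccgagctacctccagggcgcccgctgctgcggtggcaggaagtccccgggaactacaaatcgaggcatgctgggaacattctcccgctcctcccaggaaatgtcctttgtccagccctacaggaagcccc
ZNF180 promoter, chr19:44500523-44500772, minus strand: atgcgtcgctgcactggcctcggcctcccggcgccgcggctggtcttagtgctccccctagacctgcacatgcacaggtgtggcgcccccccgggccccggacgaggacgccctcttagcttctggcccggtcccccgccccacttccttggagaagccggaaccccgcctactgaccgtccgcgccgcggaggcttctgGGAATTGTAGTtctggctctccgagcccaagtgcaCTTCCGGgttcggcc
ZNF587 promoter, chr19:57849609-57849858, plus strand: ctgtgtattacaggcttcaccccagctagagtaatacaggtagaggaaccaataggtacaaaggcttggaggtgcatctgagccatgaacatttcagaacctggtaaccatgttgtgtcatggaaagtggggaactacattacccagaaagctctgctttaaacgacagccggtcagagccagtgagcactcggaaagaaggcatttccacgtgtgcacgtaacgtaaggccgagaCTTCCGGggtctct
ZNF740 promoter, chr12:53180472-53180721, plus strand: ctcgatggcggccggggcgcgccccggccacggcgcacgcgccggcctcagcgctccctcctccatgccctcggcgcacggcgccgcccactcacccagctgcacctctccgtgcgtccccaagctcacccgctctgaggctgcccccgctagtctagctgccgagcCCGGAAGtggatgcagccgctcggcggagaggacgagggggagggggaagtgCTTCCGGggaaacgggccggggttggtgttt
ZNF587, a KRAB gene, rose by 0.26 (edgeR adjusted p = 0.00114), but 15.3% of its 75-base stretches also occur in transcripts of other genes, chiefly ZNF417, and 35.0% of its exon length overlaps another gene. ZNF740 rose by 0.34 (edgeR adjusted p = 7.37e-06), and 22% of its exon length overlaps another gene.

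Genes listed as KRAB cofactors or as other chromatin genes were more often called lower than higher, unlike the members. Of 29 listed cofactor and chromatin genes, 1 was called higher and 14 lower, with a median of -0.12. The shares were 16.2% higher and 16.9% lower over all genes tested, and 19.9% and 27.0% over protein-coding genes with the members' minimum. With the trend on expression level removed the counts were 2 higher and 9 lower. Under that setting 16.4% of all genes tested were called higher and 15.4% lower. Among protein-coding genes with the members' minimum it was 22.6% and 22.6%, so the share called lower came nearer to the background. Scaling by library size alone gave 3 and 10, beside 20.3% and 12.4% of all genes tested. TRIM28, the corepressor that binds KRAB, had 306, 316 and 315 CPM in PBS and 241, 243 and 258 in TPBC-PEG, a fall of 0.34 ± 0.038 on the log2 scale (SE; edgeR adjusted p = 3.81e-10). The groups did not overlap. SETDB1 was not called (0.08, edgeR adjusted p = 0.255). DNMT1, the maintenance DNA methyltransferase, fell by 0.41 (edgeR adjusted p = 3.79e-12), UHRF1, its recruiter, by 0.34 (5.9e-09), and EHMT2, which encodes G9a, by 0.37 (3.75e-06). ZMYND8 rose by 0.26 (edgeR adjusted p = 0.000274). DNMT1, UHRF1, TRIM28 and WIZ, all called lower, lie on chromosome 19. There 46.8% of the protein-coding genes with the same minimum, numbered ZNF genes aside, were called lower. Whether the changes of the listed genes bear on the members was not tested.

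**Figure D5:**
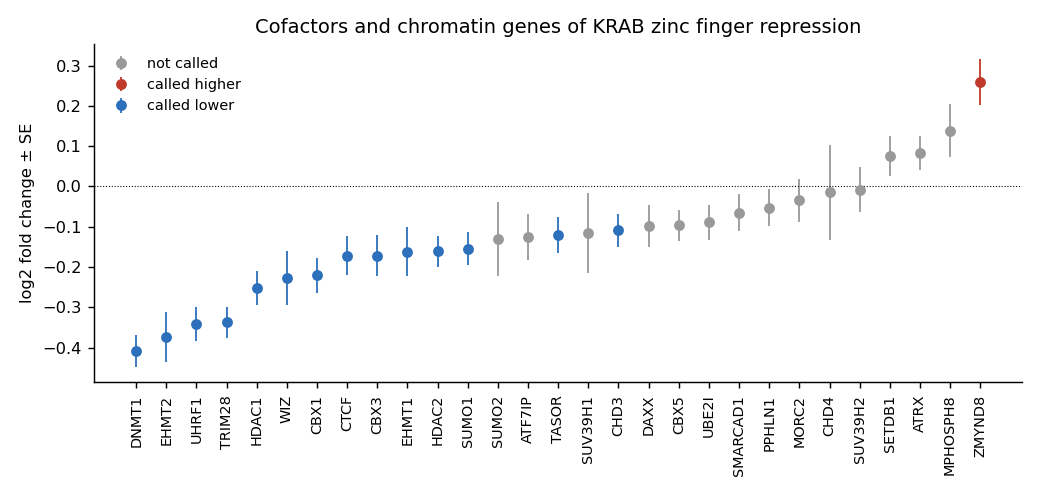
Log2 fold change ± SE (vertical axis) of 29 cofactor and chromatin genes in order of their value. The 14 called lower run from DNMT1 to CHD3, and ZMYND8 is the only one called higher.

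Other families named for zinc fingers moved upwards as well. Of 42 ZFP, ZSCAN, ZKSCAN and ZBTB genes with the same minimum, 19 (45.2%) were called higher and 0 lower, with a median log2 fold change of 0.16. The shares were 16.2% higher and 16.9% lower over all genes tested, and 19.9% and 27.0% over protein-coding genes with that minimum. With the GC trend removed, 2 genes of these families were called lower, and the count called higher stayed within 1.5 times of 19. Over all genes tested that correction gave 14.4% higher and 18.5% lower. The largest rises were ZBTB41 (0.64, edgeR adjusted p = 5.55e-09) and ZBTB21 (0.56, adjusted p = 1.65e-13).

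Numbered ZNF genes below the minimum had a similar median and fewer calls. Of the 345 below it, 227 could be tested, and 27 (11.9%) were called higher and 8 (3.52%) lower, with a median of 0.11. Both shares lay below those over all genes tested (16.2% and 16.9%). Of the 510 genes, 52 had a count of 0 in every library. Just above the minimum lay ZNF783 (1503 counts, log2 fold change 0.20), ZNF184 (1512, 0.21) and ZNF766 (1516, 0.24). Just below it lay ZNF780B (1487, 0.12), ZNF738 (1489, -0.10) and ZNF718 (1491, 0.04). None of the 6 was called. ZNF766 was called higher without PBS replicate 3 (edgeR adjusted p = 0.0442), with library size alone (0.0271) and with protein-coding genes alone in the fit (0.0468), and ZNF184 with library size alone (0.042). Members under 20 CPM in PBS had a median of 0.14 and those at 20 CPM or more a median of 0.06. The PBS level that splits them also enters the fold change, so these medians cannot show an effect of level. The shares called higher went the other way, at 24.5% and 33.6%.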

How the data were processed

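RNA from 3 PBS and 3 TPBC-PEG libraries of 143B cells was sequenced, and groups came from the sample titles. The authors deposited raw read counts per gene, and the submitters' processing notes name HISAT2 and GRCh38. How reads were counted, with which annotation and strand setting, and what became of multiply aligned reads is not given in the sources used here, so overlapping or near-identical genes may share reads (35 members overlap another gene over more than 10% of their exon length).

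Counts were tested with edgeR 4.0.16 (limma 3.58.1, R 4.3.3) using filterByExpr (minimum count 10, minimum total 15), TMM scaling, robust glmQLFit and glmQLFTest, with group as the only term. This tested 15846 genes, and Benjamini-Hochberg adjusted p under 0.05 was a call. Standard errors came from the F statistic. The common biological coefficient of variation was 4.19%. Counts without molecular identifiers are not independent molecules. Positions, exon lengths and GC content came from GENCODE 29, fingers and KRAB cores from its translated transcripts, and promoters from RefSeq. The methods were tested on simulated data.

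Members and lists were chosen with earlier results of these data known. Named members were the 5 largest rises and falls among called members without overlap between groups, and the 3 smallest p-values per direction. Both were taken on chromosome 19 and elsewhere. Also named were the 3 most abundant in each set, the 3 genes on each side of the minimum, and genes with a listed role. For the largest rises and falls, the lack of overlap was thus fixed by the choice. Cofactors named were up to 3 called per direction with TRIM28 and SETDB1, and up to 2 per direction of the other families. Alternatives were other scalings, filters, DESeq2 1.42.0, limma-voom, a replicate block, leaving out libraries, trend offsets (lowess span 0.3), a 1.5-fold test, other minimums and overlap-free members.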

Additional observations from a re-analysis of the deposited data

How the results depend on the processing

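Counts of called members stayed within 1.5 times of those reported under other scalings, filters, DESeq2 (43 higher and 10 lower of 165), limma-voom (49 and 11), trend offsets and protein-coding genes alone. Library size alone raised the median to 0.136 in all members and 0.137 elsewhere than chromosome 19, and it moved the median over all genes from 0.01 to 0.05. Removing the GC trend gave 0.0684 and 0.0743, and removing the exon length trend 0.0681 in all members. Members without exon overlap over 10% gave 0.11 in all, 0.125 elsewhere and 1 called lower on chromosome 19. A test against a 1.5-fold change called 0 members, cofactors or genes of the other families. With a minimum of 500 counts, 17 of 312 genes were called lower in all, 21 of 116 higher and 4 lower on chromosome 19, where the share called higher was thus smaller than 12 of 40, and the median elsewhere was 0.113. With a minimum of 5000, 18 of 37 were called higher and 3 lower in all, 2 and 0 of only 3 on chromosome 19 (median 0.169) and 16 and 3 of 34 elsewhere. These minimums change which genes are counted and not the fit. In that fit 16.2% of all genes tested were called higher and 16.9% lower. On chromosome 19 the share called higher with a minimum of 500 lay nearer to this background than 12 of 40 did. Summed over members, TMM-scaled CPM was 1121.5 on chromosome 19 in PBS (1103.2 from raw shares), 5477.1 elsewhere in PBS (5387.7) and 5862.2 elsewhere in TPBC-PEG (5943.3). Of the cofactors, 3 were called higher with library size alone, where 20.3% of all genes tested were. With the expression trend removed 2 cofactors were called higher and 9 lower, beside 16.4% and 15.4% of all genes tested. Of the other families, 2 were called lower with the GC trend removed. The causes of the other shifts were not tested.

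Leaving out each library in turn gave 41 to 49 members called higher and 8 to 13 lower, 9 to 12 and 2 to 3 on chromosome 19, and 30 to 39 and 6 to 10 elsewhere. Medians ran from 0.0819 to 0.101 in all, 0.0764 to 0.0972 on chromosome 19 and 0.0785 to 0.112 elsewhere. It gave 1 to 2 cofactors called higher, the 2 without PBS replicate 3, and 11 to 14 lower. Of 62 calls, 49 to 56 remained. Of the 27 named members that were called, 17 kept their call under each of 19 alternatives, and 10 lost it under at least 1. Of the 16 named members that were not called, 5 were called higher under at least 1 alternative (ZNF146, ZNF184, ZNF274, ZNF532 and ZNF766). Signs turned in 9 of the 16 named members that were not called, and in none that was called. The values were -0.00565 for ZNF598 with DESeq2 size factors, 0.0179 for ZNF592, 0.0345 for ZNF593 and 0.0201 for ZNF638 with library size alone, -0.00665 for ZNF598 with no filter, -0.00247 for ZNF598 with a filter of 1 CPM in 3 libraries. Further values were -0.00417 for ZNF598 with DESeq2, -0.000793 for ZNF598 with limma-voom, -0.0249 for ZNF106, -0.00968 for ZNF146 and 0.0568 for ZNF593 with the GC content trend removed, -0.0201 for ZNF106 and -0.0059 for ZNF76 with the exon length trend removed, 0.0366 for ZNF638 with the expression trend removed. Leaving out 1 library gave -0.00684 to 0.0438 for ZNF106, -0.0189 to 0.047 for ZNF384, -0.0114 to 0.125 for ZNF445, -0.0589 to 0.0476 for ZNF593, -0.0686 to 0.0591 for ZNF598, -0.0489 to 0.00681 for ZNF638 and -0.0137 to 0.0357 for ZNF76.

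The replicate numbers did not pair the libraries (r of same-numbered deviations 0.00336, 0.0646 and -0.0154). With the number as a replicate block, 51 members were called higher and 11 lower, 12 and 2 on chromosome 19 and 39 and 9 elsewhere, with medians of 0.0913, 0.0840 and 0.0943, and all 62 calls remained. A comparison by protein identity was not run because no protein table was used here. The settings for cofactors and other families, and leaving out 5 members that share over 5% of their 75-base stretches with other genes (49 called higher and 11 lower), were chosen after seeing the data.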
